A study of Homo sapiens with 2 samples.

Results

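The sites described here were listed in an experiment that crosslinks RNA to the protein SOX2, and they lie in 8 genes. Of these, 6 encode heat shock family chaperones (HSPA8, HSPA5, HSPA9, HSP90AB1, HSP90AA1 and HSPD1) and 2 encode abundant nucleolar proteins (NCL and NPM1). Members were all listed sites that touched a fixed hg19 interval around each gene on the strand of that gene. The intervals measured 5 to 60 kb and 151 kb together. They held 13 of the 16964 sites of replicate 1 and 62 of the 55830 sites of replicate 2. The rule places members by position and strand and uses no score. In the GRCh38 annotation the genes span 5.74 to 59.0 kb. The interval of HSPD1 (14 kb) is shorter than its annotated gene (30.2 kb). The same holds for NCL (11 kb against 30.1 kb) and HSPA8 (5 kb against 5.74 kb). Any sites in the rest of these genes would not be members. Same-strand stretches on either side of these intervals, each as long as its interval, held 0 sites in either replicate.

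The study measured RNA contacts of SOX2 by PAR-CLIP, in which a photoreactive uridine analogue in the RNA is crosslinked to bound protein by ultraviolet light and the protected fragments are sequenced. Both libraries came from HEK293T, a human embryonic kidney line carrying SV40 large T antigen, transfected with a plasmid for FLAG-tagged SOX2, labelled with 0.2 mM 4-thiouridine for 16 hours and irradiated at 365 nm. They form 1 group of 2 independent experiments, replicates 1 and 2. A library without tagged SOX2 and a measurement of RNA abundance were not analysed here, so crosslinking to SOX2 cannot be told apart from the abundance of an RNA or from background. The protein was supplied by transient transfection in a kidney-derived line, which limits the cells as a model of endogenous SOX2.

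Heat shock chaperones bind unfolded or partly folded proteins and use ATP to release them. The HSP70 family works early in folding, HSP90 acts on late intermediates such as kinases and steroid receptors, and HSP60 encloses proteins in a chamber inside mitochondria. Nucleolin and nucleophosmin act in ribosome assembly in the nucleolus. All these genes are strongly transcribed in dividing cells, and several carry small nucleolar RNAs (snoRNAs, guides for the chemical modification of ribosomal RNA) in their introns. SOX2 itself is an HMG-box transcription factor of stem cells.

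Every one of the 8 genes had sites in replicate 2, between 5 and 10 each, while 5 had sites in replicate 1. The genes without a replicate 1 site were HSPA5, HSP90AB1 and HSP90AA1. The list of replicate 2 was 3.29 times as long as that of replicate 1, and within the 8 genes the ratio of sites was 4.77. The genes held 0.0938% ± 0.0243 (SD, n = 2) of the listed sites, with 0.0766% in replicate 1 and 0.111% in replicate 2. The score is a whole number that the authors attached to each site. What it counts was not stated, so read depth is unknown. The scores of the members added up to 1640 in replicate 1 and 10443 in replicate 2. The whole lists summed to 5365592 and 5192778. Their strongest sites scored 1560568 and 702704, so single sites weigh heavily in these sums. The share of the score sum in the genes was 0.116% ± 0.121 (SD, n = 2), so the 2 libraries differed by more than their mean.

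Sites were rare on the other strand and upstream of the intervals, while some lay downstream of NPM1. On the opposite strand of the same intervals there were 0 sites in replicate 1 and 1 in replicate 2, a site of score 38 in the HSP90AB1 interval. The same-strand flanks upstream, each as long as its interval, held 0 sites in either replicate. The downstream flanks held 1 site in replicate 1 and 6 in replicate 2, of which 1 and 5 lay beyond NPM1 and the remaining one beyond HSPA9. The 1-kb margins on either side of the intervals added no site. Opposite-strand and flank counts over the whole lists were not computed.

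**Figure D1:**
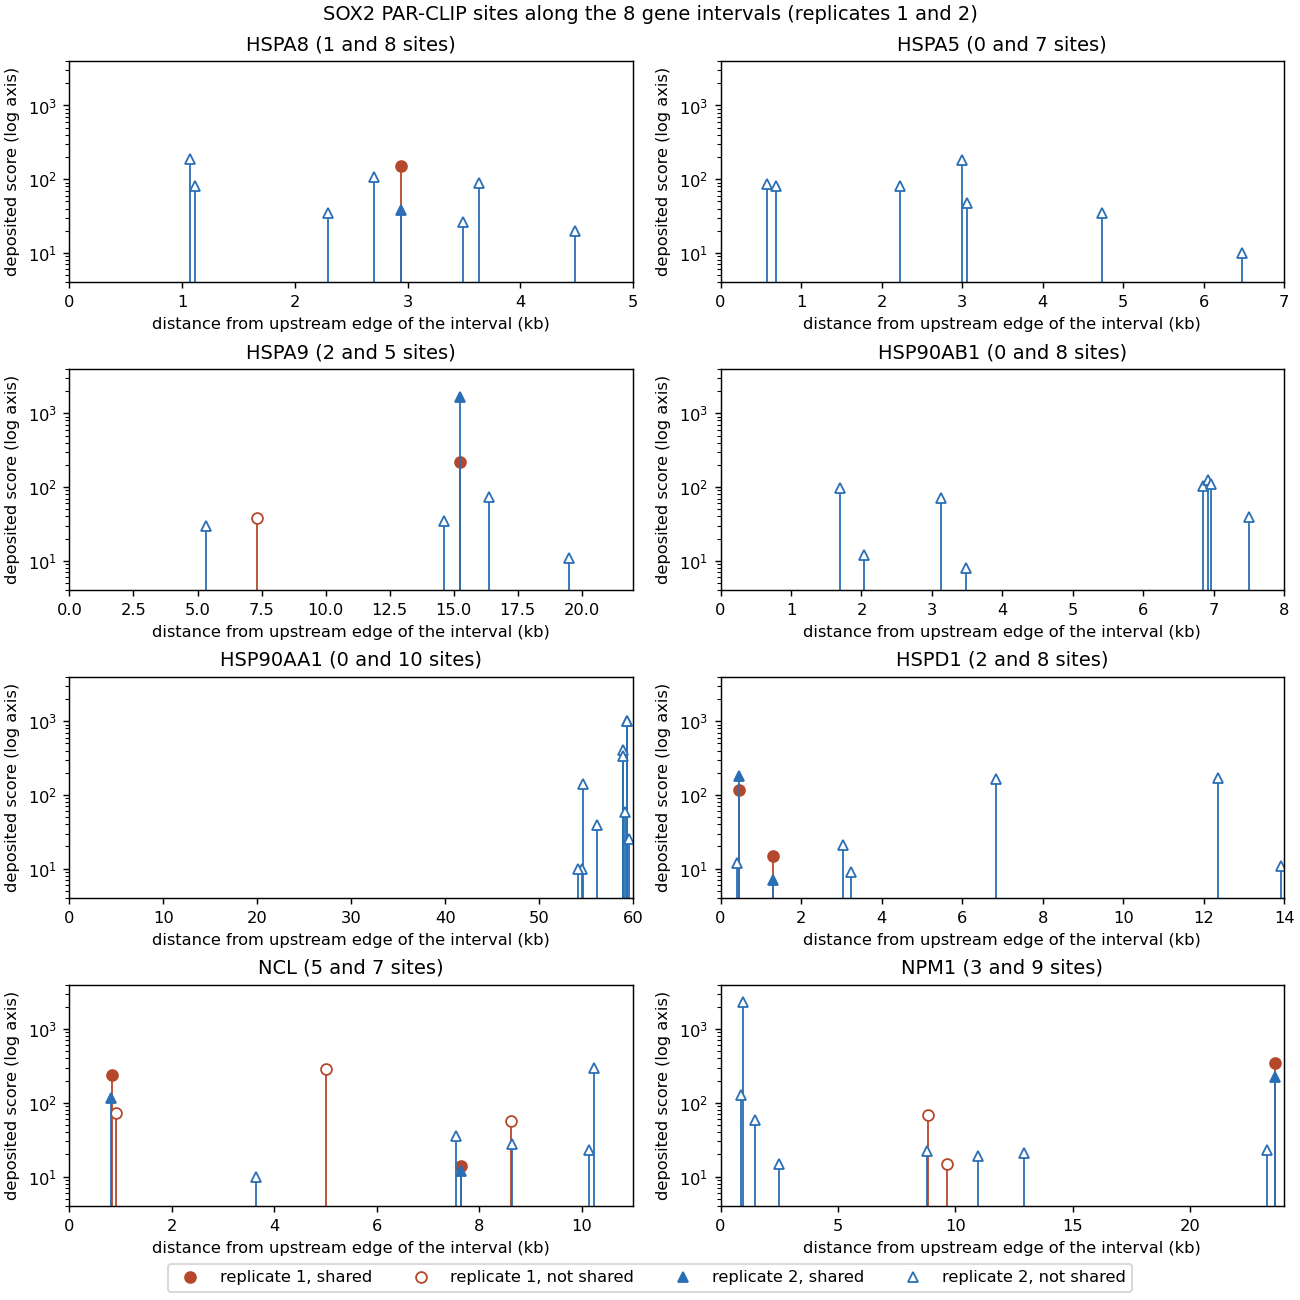
Each panel plots the sites of 1 gene interval by the distance of their midpoint from the upstream edge (kb, in the direction of transcription) and their deposited score (log axis); circles are replicate 1, triangles replicate 2, and filled symbols are sites that overlapped a site of the other replicate. All 10 HSP90AA1 sites lie at the downstream end of its 60 kb interval, and the highest triangles, with scores of 2322 in NPM1 and 1654 in HSPA9, stand far above the other sites of these genes.

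HSPA8 encodes the constitutive cytosolic HSP70, which also strips clathrin from vesicles. It had 1 site in replicate 1, with a score of 149, and 8 sites in replicate 2, with scores from 20 to 191 and a median of 60.0. At 1.60 sites per kb of interval it was the most densely covered of the genes in replicate 2, a rank that depends on the interval lengths. Of the 30424 strand-specific 5 kb tiles that held a replicate 2 site, 1.73% had at least as many. For the other genes, in tiles of their own length, this share ran from 2.79% (HSP90AB1) to 17.2% (HSPA9). The replicate 1 site, on the minus strand of chromosome 11 at 122930056 to 122930069, was covered by a replicate 2 site from 122930054 to 122930069 with a score of 38. The RNA-upstream edges of both sites were identical. The strongest replicate 2 site was another one, at 122931910 to 122931942 with a score of 191, and a site of score 82 lay 13 nt downstream of it in the RNA. Thus the single HSPA8 site of replicate 1 was recovered, but it was not the main site of replicate 2.

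HSPA5 encodes BiP, the HSP70 of the endoplasmic reticulum. It had 0 sites in replicate 1 and 7 in replicate 2, with scores from 10 to 181 and a sum of 519. Its strongest site lay on the minus strand of chromosome 9 at 128000988 to 128001002 and scored 181, and a site of score 47 lay 31 nt downstream of it in the RNA. In the upstream part of the interval, sites with scores of 86 and 80 lay 0.58 and 0.69 kb from the edge. The sites were therefore spread over the interval, with none that dominated: the strongest took 34.9% of the gene's score. Of loci with a like number of replicate 2 sites, many had no replicate 1 site either: 28.1% of the 1036 tiles of 7 kb with 6 to 8 replicate 2 sites had none in replicate 1.

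HSPA9 encodes mortalin, the HSP70 of the mitochondrial matrix. It had 2 sites in replicate 1, with scores of 222 and 38, and 5 in replicate 2, with scores of 1654, 74, 35, 30 and 11. The strongest sites of the replicates overlapped slightly on the minus strand of chromosome 5. The replicate 1 site spanned 137896735 to 137896751 and the replicate 2 site spanned 137896750 to 137896774. They shared only 2 nt, the replicate 1 site lying on the RNA-downstream side. The replicate 2 site took 91.7% of the score of the gene in that list and ranked 177 among all its sites, and its score was 7.45 times that of its replicate 1 partner. With 1 value per library this difference was not tested. The remaining replicate 1 site, at 137904676 to 137904689, was 1983 nt from the nearest replicate 2 site.

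Neither of the cytosolic HSP90 genes had a replicate 1 site. HSP90AB1, the constitutive form, had 8 sites in replicate 2, with scores from 8 to 124 and a median of 84.0. A group of 3 plus-strand sites of chromosome 6, at 44220846 to 44220860, 44220916 to 44220934 and 44220948 to 44220964, scored 102, 124 and 111. These were also the highest scores of the gene, so its signal peaked 6.85 to 6.96 kb from the upstream edge. A lower-scoring group further upstream had its strongest site, of score 96, at 44215686 to 44215703. Among 705 tiles of 8 kb with 7 to 9 replicate 2 sites, 23.0% held 0 replicate 1 sites.

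HSP90AA1, the stress-inducible form, had the most sites of the 8 genes and the highest score sum in replicate 2, with 10 sites and a sum of 3038. Over its 60 kb interval, the longest, this was 0.167 sites per kb, the lowest density of the 8 genes. That rank rests on the length of the interval, as all 10 sites lie within 5.88 kb of its downstream edge. Of the 60 kb tiles that held a replicate 2 site, 10.3% had at least 10. The most downstream 1.5 kb of the HSP90AA1 interval held 6 of its sites and 93.5% of its score. They formed a pair at 102547610 to 102547624 and 102547640 to 102547654 on the minus strand of chromosome 14, with scores of 995 and 1019, and a pair at 102548024 to 102548037 and 102548054 to 102548077, with scores of 409 and 334. Within each pair the sites stood 15 and 16 nt apart and differed little in score. The other 2 of the 6 sites scored 25 and 58. Upstream, 4 further sites scored 10, 10, 139 and 39, and the remaining 54.1 kb of the interval held none. The empty stretch lies on the upstream side.

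Loci with this many replicate 2 sites sometimes lacked replicate 1 sites too. Of 687 tiles of 60 kb with 9 to 11 replicate 2 sites, 11.2% had no replicate 1 site, and the median was 2.00. With tiles of 6 kb, a length chosen afterwards because all 10 sites lie within 5.88 kb of the downstream edge, the share was 16.4% of 281 tiles. The nearest same-strand replicate 1 site to any HSP90AA1 site was 164301 nt away. For single sites the background is broader: 48.8% (95% Wilson interval 44.6 to 53.0) of the 547 replicate 2 sites with scores of at least 500 had a partner in replicate 1, and the sites of score 995 and 1019 were among those that did not.

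HSPD1 encodes HSP60, the mitochondrial chaperonin. It had 2 sites in replicate 1, with scores of 15 and 116, and 8 in replicate 2, with scores from 7 to 178. Both replicate 1 sites were shared. The stronger, on the minus strand of chromosome 2 at 198364532 to 198364546, overlapped the strongest replicate 2 site of the gene, at 198364534 to 198364561 with a score of 178, by 13 nt. The weaker, at 198363696 to 198363710, overlapped a replicate 2 site at 198363694 to 198363711 with a score of 7, among the lowest of the list. Both shared places of HSPD1 thus lay near the upstream edge of its interval, 0.46 and 1.30 kb from that edge. Further downstream, replicate 2 sites at 198352632 to 198352653 and 198358152 to 198358169, with scores of 168 and 167, lay 11042 and 5526 nt from the nearest replicate 1 site.

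NCL encodes nucleolin, an RNA-binding protein of the nucleolus. It was the one gene whose score sum was higher in replicate 1, with 668 against 523 in replicate 2. It had 5 sites in replicate 1, with scores of 57, 14, 287, 73 and 237, and 7 in replicate 2, with scores from 10 to 299. At least 5 replicate 1 sites occurred in 1.07% of the 12754 tiles of 11 kb that held a replicate 1 site. It had 2 shared pairs on the minus strand of chromosome 2. Near the upstream edge of the interval, the replicate 1 site at 232329164 to 232329180 scored 237 and its partner at 232329165 to 232329185 scored 116. The replicate 1 site at 232322357 to 232322372 scored 14 and its partner at 232322354 to 232322372 scored 12, with identical RNA-upstream edges. A further replicate 1 site, at 232321382 to 232321395 with a score of 57, missed the replicate 2 site at 232321352 to 232321378, of score 28, by 3 nt.

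The strongest NCL sites of the libraries were nonetheless different ones. In replicate 1 it lay at 232324984 to 232324998 with a score of 287, and the nearest replicate 2 site was 1344 nt away. In replicate 2 it lay at 232319760 to 232319780 with a score of 299, and the nearest replicate 1 site was 1601 nt away. The strongest NCL site of each library thus had no partner in the other. The 2 shared pairs had scores of 237 and 14 in replicate 1 and 116 and 12 in replicate 2. Their order was the same, but 2 pairs are too few to read agreement from it.

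NPM1 encodes nucleophosmin, a histone chaperone and ribosome assembly factor of the nucleolus. It had 3 sites in replicate 1, with scores of 69, 15 and 348, and 9 in replicate 2, with scores from 15 to 2322 and a median of 23.0. The strongest replicate 1 site, from 170837613 to 170837627 on the plus strand of chromosome 5, lay 23.62 kb from the upstream edge, and was covered by a replicate 2 site from 170837611 to 170837627 with a score of 224. Their RNA-downstream edges were identical. This was the strongest NPM1 site of replicate 1 and the second strongest of replicate 2, at the far end of a 24 kb interval.

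At the other end of NPM1 the libraries disagreed. The strongest member site of either list, at 170814928 to 170814944 with a score of 2322, took 82.0% of the NPM1 score in replicate 2, and a site of score 129 stood 39 nt before it. The first 2 kb of the interval carried 88.6% of the score of the gene in that list. The nearest replicate 1 site was 7890 nt away. A pair in the middle of the gene came close without touching: a replicate 1 site of score 69, from 170822835 to 170822849, and a replicate 2 site of score 22, from 170822798 to 170822815, had 19 nt between them.

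**Figure D2:**
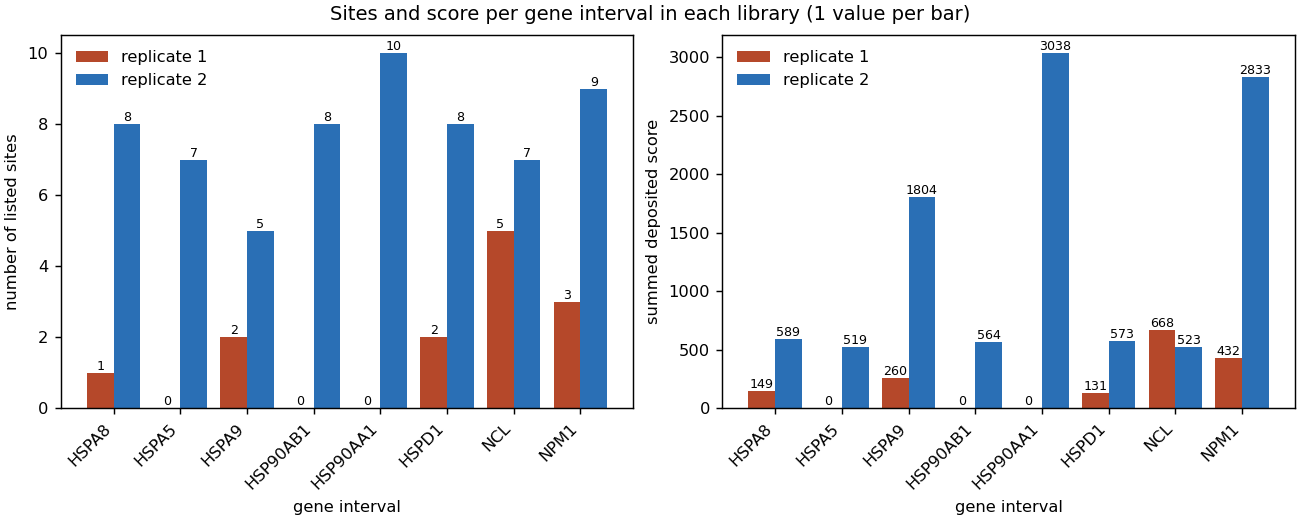
Bars give the number of listed sites (left) and the summed deposited score (right) of each gene interval in replicate 1 and replicate 2, 1 library per bar. Replicate 1 has 0 sites in HSPA5, HSP90AB1 and HSP90AA1, NCL alone has a higher score sum in replicate 1 (668 against 523), and HSP90AA1 and NPM1 lead replicate 2 with 3038 and 2833.

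Grouped by function, the 6 chaperone genes had 5 sites in replicate 1 and 46 in replicate 2, and the 2 nucleolar genes had 8 and 16. The nucleolar genes took 67.1% of the member score in replicate 1 and 32.1% in replicate 2. In replicate 2 much of the signal came from 4 sites with scores of at least 500, in HSP90AA1, HSPA9 and NPM1, which took 57.4% of the member score. Only the HSPA9 site among them was shared, by an overlap of 2 nt.

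Sharing between the libraries was measured as an overlap of at least 1 nt on the same strand. Of the 13 replicate 1 sites, 7 were shared (53.8%, 95% Wilson interval 29.1 to 76.8), against 21.3% of all replicate 1 sites. Of the 62 replicate 2 sites, 7 were shared (11.3%, interval 5.58 to 21.5), against 6.50% of all replicate 2 sites. The sites of the genes scored higher than the lists, and the shared percentage of list sites weighted to the same mix of scores was 32.3% for replicate 1 and 14.2% for replicate 2. Both values lay inside the intervals of the gene sites, so the number of sites does not separate the 8 genes from list sites of like score. All 5 genes with a replicate 1 site had at least 1 shared site. How often comparable loci had one was not computed, so this count has no background. Sites of 1 RNA are not independent, so the intervals cover counting error only and are too narrow.

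Among the 7 shared pairs the score was higher in replicate 1 in 5 and higher in replicate 2 in 2, those of HSPA9 and of the stronger HSPD1 pair. On the log2 scale, the score of replicate 1 over that of replicate 2 ranged from -2.90 in HSPA9 to 1.97 in HSPA8, with a median of 0.64 and an SD of 1.59 across pairs, against a median of 0.21 and an SD of 1.37 over all 3621 shared sites. The shift was smaller than the spread between pairs. An edge was placed within 2 nt in 6 of the 7 pairs, against 60.0% of all shared sites, and the exception was HSPA9.

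**Figure D3:**
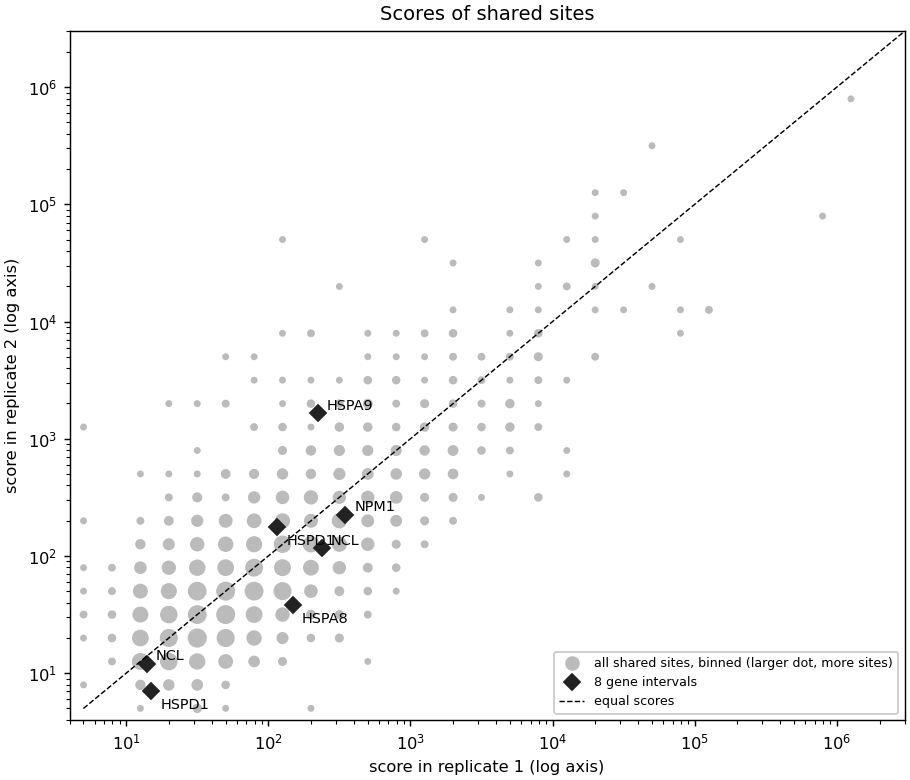
Black diamonds are the 7 shared sites of the 8 genes, by their score in replicate 1 (x, log axis) and replicate 2 (y, log axis); grey dots are all 3621 shared sites in bins, larger with more sites, and the dashed line marks equal scores. The HSPA9 pair (222 and 1654) lies above the line and the HSPA8 pair (149 and 38) below it, both within the grey cloud.

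The sites of the 8 genes were strong for their lists. Their median score was 73.0 in replicate 1, against 26.0 over the list, and 43.0 in replicate 2, against 19. Scores of at least 100 were reached by 6 of 13 sites in replicate 1 (46.2%, interval 23.2 to 70.9), against 14.8% of the list, and by 20 of 62 in replicate 2 (32.3%, interval 22.0 to 44.6), against 7.34%. In replicate 1 no member reached a score of 500, as 2.92% of its list did. The 13 member sites are too few to tell this apart from that share. Levels of these RNAs were not measured, and the part of abundance in these scores was not tested.

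**Figure D4:**
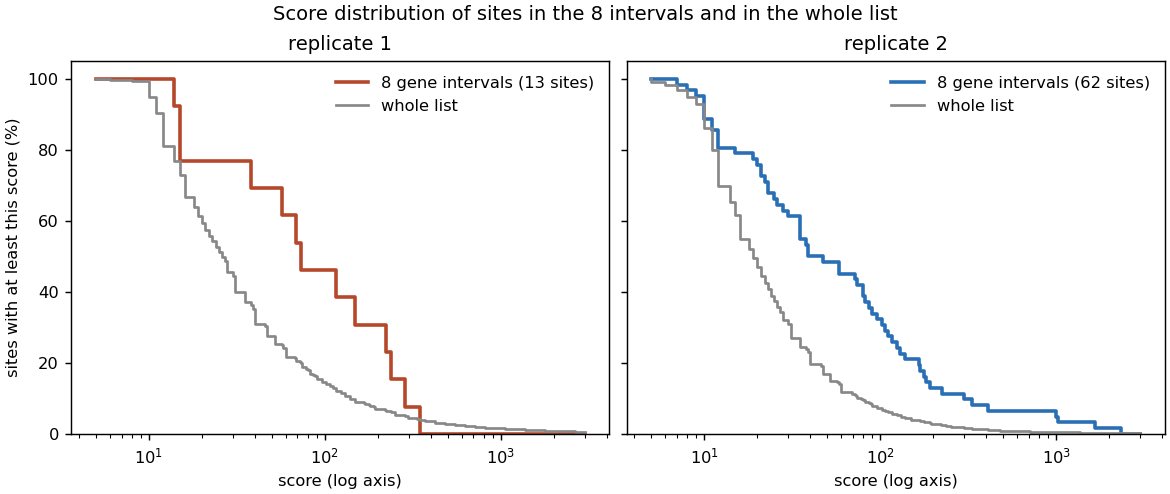
Curves give the percentage of sites with at least the score on the x axis (log) for the 8 gene intervals (coloured) and the whole list (grey), in replicate 1 (left, 13 sites) and replicate 2 (right, 62 sites). The coloured curve lies above the grey one over most of the range, and at a score of 100 it stands at 46.2% against 14.8% in replicate 1 and at 32.3% against 7.34% in replicate 2; in replicate 1 it ends at 348.

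Many sites stood in close series. In replicate 2, 23 of the 62 sites (37.1%) had a neighbour within 100 nt on their strand, against 20% of the list, and the smallest gap was 13 nt, found in HSPA8 and in HSP90AB1. In replicate 1, 2 of the 13 sites (15.4%) had such a neighbour, against 5.92% of the list. Both lay near the upstream edge of the NCL interval, 69 nt apart. Close series were seen in every gene but HSPA9. In replicate 2, most of the close pairs, among them all with gaps of 13 to 39 nt, had the same first part of the site name. What that part marks was not stated, so whether such pairs count as separate sites is not known. The median length of member sites was 15.0 nt in replicate 1, against 16.0 nt over the list, and 18.0 nt in replicate 2, against 17.0 nt.

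Some features of the RNAs themselves could be read from the gene annotation (GENCODE 29, GRCh38), by gene name and without coordinates. All 8 are protein-coding genes, and 3 are marked there as hosts of noncoding RNAs: HSPA8 with SNORD14C, SNORD14D and SNORD14E, HSPA9 with SNORD63, and NCL with SNORD20, SNORD82 and SNORA75. Of all protein-coding genes 10.6% carry this mark. Whether a site lies in an exon, an intron or a snoRNA was not analysed here. Uridine, the base that takes up the label, made up 22.8% to 27.1% of the principal transcripts, lowest in NCL and highest in HSPA9, against a median of 24.4% over 19636 genes. Guanosine, after which RNase T1 cuts, made up 23.3% to 27.5%, against a median of 25%. All 8 RNAs lay between the 5th and 95th percentiles of these genes, which were 16.5% and 31.9% for uridine and 19% and 32.3% for guanosine.

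Near-identical copies make the assignment of short reads uncertain for some of the genes. The annotation names 45 numbered pseudogenes of NPM1, 17 of HSPA8, 17 of HSPD1, 2 of NCL and 1 of HSPA9, while 8.23% of protein-coding genes have any. Copies named by another pattern, as those of the HSP90 genes are, escape this count. How reads that match several places were placed was not given in the sources, so sites and scores of these genes, NPM1 above all, may lack reads assigned to copies or hold reads from them. This was not tested.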

How the data were processed

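RNA sites were taken from 2 lists, 1 per PAR-CLIP library, with chromosome, start, end, name, score and strand. Per the submitters' processing notes, bcl2fastq, Bowtie 1.1.2 and the build hg19 were used; how sites were called, and how multiply matching reads were treated, was not given in the sources used here. Scores deposited by the authors are whole numbers from 5 upwards without a stated unit or normalization, so depth is unknown.

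Positions are hg19, counted from 1. The annotation at hand was GRCh38, whose last feature on chromosome 1 ends at 248937043, short of the largest site end at 249168105. Coordinates were therefore never joined to it, and gene names rest on the fixed intervals. Site sequences, exons and introns, and the planned list of other chaperone and nucleolar genes were not analysed here. The strand and chromosome of all 8 genes matched the annotation.

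Sites were counted and overlapped with Python 3.11.15, numpy 2.4.6, pandas 2.3.3 and scipy 1.17.1. Sites were shared when they had at least 1 nt in common on the same strand; a partner was the one with the longest overlap. Tiles are non-overlapping strand-specific windows of the length of a gene interval along the nuclear chromosomes, not aligned to genes, so a gene can be split between them. Principal transcripts are the longest APPRIS principal ones of each gene. Intervals are 95% Wilson intervals. The search for overlaps was checked with simulated lists. With 2 libraries of 1 group, no test between conditions was possible, and no p-value is given.

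All 8 genes are named. For each, the strongest site of each replicate and every shared site are named by rule; other sites and the windows of 1.5 and 2 kb were chosen after their values were seen. The genes and lists were chosen with earlier results of these data known. The samples are called independent by the labels.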

Additional observations from a re-analysis of the deposited data

How the results depend on the processing

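All 35 recomputed shares of shared sites and score ratios stayed within the Wilson interval or within 1 SD across pairs, which are wide. The share of listed sites in the 8 genes stayed within 1 SD between replicates under 4 of 5 settings; it was 0.142%, against 0.0938%, when each list was cut at its median score. The share of the score sum had an SD above its mean, so that spread shows nothing of its stability. For replicate 1 sites the shared percentage went as low as 38.5% when 50% of both sites had to overlap, which drops the pair of HSPA9 and the stronger one of HSPD1, and as high as 69.2% with gaps of up to 50 nt; for replicate 2 sites these settings gave 8.06% and 16.1%. Leaving out replicates, which gives each library alone, gave 0.0766% to 0.111% of the listed sites and 0.0306% to 0.201% of the score sum. The latter share, 0.116% as reported, was 0.192% without the 10 strongest sites of each list. That setting gave 0.0758% in replicate 1 and 0.307% in replicate 2. Without the strongest site of each gene the share was 0.0479%. The median log2 ratio of shared pairs was 1.29 with scores taken relative to the sum outside the 10 strongest sites and 1.03 with the 50% overlap. No paired analysis was possible because both libraries belong to 1 group. The wide intervals reflect 13 and 62 sites; unknown depth limits any statement on genes with no site.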
